A study of Mus musculus with 16 samples.

Results

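The mouse microRNAs mmu-miR-423-5p, mmu-miR-423-3p, mmu-miR-191-5p and mmu-miR-425-5p are abundant in blood cells and plasma and are often used as reference microRNAs. Their levels were examined here in extracellular vesicles (EVs) of mouse bone marrow plasma. They are 4 of the 1915 entries of a table of mature microRNA counts, taken by name, and all 4 passed the filter on low counts with 234 entries in all. They were chosen by their common use as plasma references, and miR-423-5p was selected on a measured value, its difference between the groups of this study. Differences between the groups are therefore given for these 4 as descriptions with their errors. Whether they passed the threshold of the fit to the whole table is stated beside the background share only, and supports nothing. The question was which of them varied little enough to serve as a reference.

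The vesicles came from 6-month-old C57BL/6N mice that carried the CAGS-Snorkel reporter together with 1 of 2 Cre drivers. Ocn-Cre, whose osteocalcin promoter is active in mature bone-forming cells and osteocytes, was present in 6 mice (3 male and 3 female), while 10 mice (5 male and 5 female) had Prx1-Cre, which marks cells that descend from embryonic limb mesenchyme. The groups are called Ocn and Prx1. EVs were captured from marrow plasma with an antibody to the HA tag, and 1 library was made per mouse. Captures from mice without Cre were not analysed here, which leaves the background of the capture unmeasured, and more vesicles of a kind cannot be told apart from more of a microRNA per vesicle.

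A microRNA acts as a guide that pairs with target messenger RNAs mainly through its seed, bases 2 to 8 from the 5′ end. A hairpin precursor can give a mature strand from each arm, named 5p and 3p. Because the amount of RNA recovered from plasma vesicles varies, a level is often expressed relative to a reference microRNA, which has to vary little between samples and between groups. The arms of miR-423 come from 1 precursor. miR-191 and miR-425 come from neighbouring hairpins and are usually made from 1 primary transcript.

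The sequences are shown because each has a seed of its own, so the 4 are separate guides and not members of a seed family. They are the mature strands of RefSeq (build GRCm38.p6, matched for all 4), 5′ to 3′, with the seed in capitals.
miR-423-5p: uGAGGGGCagagagcgagacuuu
miR-423-3p: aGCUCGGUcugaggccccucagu
miR-191-5p: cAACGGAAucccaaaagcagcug
miR-425-5p: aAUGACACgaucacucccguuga
The precursor Mir423 is shown with both mature arms in capitals, since the arms did not keep a fixed ratio in these libraries.
Mir423: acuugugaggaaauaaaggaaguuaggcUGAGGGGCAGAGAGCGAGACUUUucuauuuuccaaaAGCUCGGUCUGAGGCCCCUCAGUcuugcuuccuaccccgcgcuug
Each mature strand has 23 bases. The share of G and C was 56.5% in miR-423-5p, 65.2% in miR-423-3p, 52.2% in miR-191-5p and 47.8% in miR-425-5p, against a median of 47.6% over the 204 tested entries with a RefSeq sequence. Of those entries, 8 had a higher share than miR-423-3p. None of these 204 entries shared a seed with any of the 4, although miR-6921-5p has the seed of miR-423-5p and miR-489-3p that of miR-425-5p among entries of the table that were not tested.

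In mm10 (GRCm38), Mir423 lies on chromosome 11, from 77078064 to 77078172 on the minus strand, in an intron of the protein-coding gene Nsrp1. Mir191 (108568319 to 108568392) and Mir425 (108568777 to 108568861) lie 384 bases apart on the plus strand of chromosome 9. In GENCODE M21 each of these hairpins overlaps an exon of the lincRNA 4833445I07Rik. Mir191 also overlaps the predicted microRNA gene Gm24083 on the other strand. The gene Dalrd3 begins 1024 bases past Mir425.

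Library totals were 582660 to 1536421 in Ocn against 225273 to 813770 in Prx1, so depth differed with the group. Levels are CPM (counts scaled to the library total) unless stated otherwise. Summed CPM of 5 erythroid microRNAs, all detected in every library, ranged from 23947 to 43670 in Ocn and from 31874 to 47291 in Prx1. Most of that sum was miR-486a-5p and the near-identical miR-486b-5p, which were lower in Ocn (log2 fold changes -0.38 and -0.38, edgeR adjusted p = 0.0451 and 0.0457). The other erythroid entries, miR-144-3p (0.58), miR-451a (0.22) and miR-144-5p (0.17), had values above 0 and did not pass. Summed CPM of 5 platelet and leukocyte microRNAs, likewise detected throughout, ranged from 55197 to 110492 in Ocn and from 57019 to 88389 in Prx1, and of 3 muscle microRNAs from 46680 to 77323 and from 39775 to 70705. The members of both lists differed in direction. miR-150-5p was lower in Ocn (log2 fold change -1.05, edgeR adjusted p = 0.00125). miR-142a-3p (0.09), most of the first sum, miR-223-3p (-0.27), miR-142a-5p (-0.03) and miR-126a-3p (0.14) did not pass. Of the muscle entries, miR-133a-3p was lower in Ocn (-0.68, edgeR adjusted p = 0.00819), while miR-1a-3p (0.34) and miR-206-3p (-0.29) did not pass. The liver marker miR-122-5p had 555 counts in Prx1 5 and 0 to 19 counts in each of the other 15 libraries. The part of these cell types in the results below was not tested.

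The 4 microRNAs together made up 1.17% ± 0.09 of all Ocn counts (SD, n = 6) and, in Prx1, 1.45% ± 0.28 (SD, n = 10). miR-191-5p was the most abundant of them, in place 20 among all entries by mean CPM, followed by miR-425-5p in place 51, miR-423-5p in place 68 and miR-423-3p in place 90. The counts behind these levels were smallest for miR-423-3p, with 188 to 516 counts per library in Ocn and 92 to 369 in Prx1. miR-191-5p had 4960 to 14793 counts per library in Ocn and 2176 to 11044 in Prx1.

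All 4 had a lower mean level in Ocn, with folds in the edgeR fit described below from 1.14 for miR-425-5p to 1.71 for miR-423-5p. miR-423-5p, which has been studied in plasma as a marker of heart failure, had a lowest value of 272.9 CPM, a median of 555.1 and a highest value of 682.0 in Ocn. In Prx1 the corresponding values were 705.4, 895.9 and 1133 CPM. The groups did not overlap: the lowest Prx1 library, Prx1 9, lay above the highest Ocn library, Ocn 4. Non-overlap in either direction was found for 3.85% of the 234 tested entries, and among the 4 only for miR-423-5p, whose choice used that contrast. The Ocn libraries were scattered, with Ocn 3 below the rest, whereas 8 of the 10 Prx1 libraries lay between 863.5 and 937.7 CPM.

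miR-423-3p, the other arm of that precursor, ran from 276.2 CPM over a median of 351.0 to 419.9 in Ocn, and from 408.4 over a median of 461.8 to 665.9 CPM in Prx1. Only Prx1 4, the shallowest library, fell below the highest Ocn library, and 5 of 6 Ocn libraries lay below every Prx1 library. Prx1 2 and Prx1 3 stood above the other Prx1 libraries.

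miR-191-5p ranged from 8442 CPM (median 9185) to 10133 in Ocn and from 8631 CPM (median 10356) to 15064 in Prx1. Its Ocn libraries were close together and overlapped with 5 of the 10 Prx1 libraries, while Prx1 2, Prx1 3 and Prx1 9 were the highest. miR-425-5p ranged from 1184 CPM (median 1570) to 2030 in Ocn and from 1370 CPM (median 1704) to 2254 in Prx1. Here the groups overlapped over most of their range, and Ocn 3, the lowest Ocn library for miR-423-5p, was the highest.

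**Figure D1:**
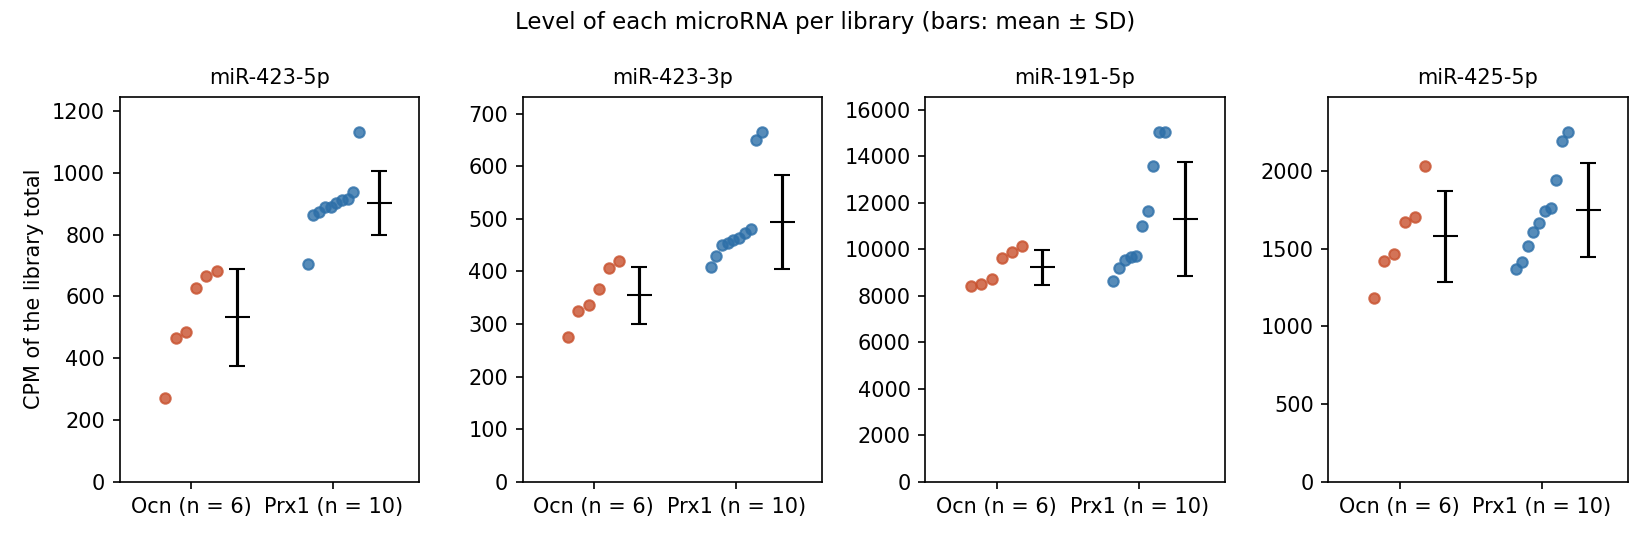
Level of each microRNA per library (y axis, CPM of the library total, starting at 0) in Ocn (n = 6) and Prx1 (n = 10). Points are libraries and bars the mean ± SD; the groups are apart for miR-423-5p, nearly so for miR-423-3p, and overlap for miR-191-5p and miR-425-5p.

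Mean levels were 533 ± 157 CPM in Ocn and 902 ± 104 in Prx1 for miR-423-5p (SD, n = 6 and 10 here and below) and 355 ± 54 against 494 ± 89 CPM for miR-423-3p. They were 9220 ± 741 against 11308 ± 2438 CPM for miR-191-5p and 1580 ± 290 against 1747 ± 302 CPM for miR-425-5p. In the edgeR fit to the whole table with TMM scaling, the log2 fold change of Ocn over Prx1 was -0.77 (SE 0.17, 95% interval -1.13 to -0.42) for miR-423-5p and -0.51 (SE 0.13, interval -0.77 to -0.24) for miR-423-3p. It was -0.32 (SE 0.13, interval -0.59 to -0.06) for miR-191-5p and -0.18 (SE 0.12, interval -0.44 to 0.07) for miR-425-5p. The interval of miR-425-5p includes 0 but also a level 1.36-fold lower in Ocn, so it does not show equal levels.

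Past an adjusted p of 0.05 in that fit were 2 of the 4, the arms of miR-423, both lower in Ocn, where 7.69% of the 234 tested entries were called lower and 5.98% higher. As the contrast was in view when the 4 were chosen, nothing is read from that count. Over all tested entries the median log2 fold change was 0.01, with 14 called higher and 18 lower in Ocn. Under upper quartile scaling, which shifted all log2 fold changes by a median of 0.13, these calls were 26 higher and 11 lower. Each of the 4 was lower in Ocn under every one of 27 alternative settings. These settings refit the same libraries, most of them with 1 left out. The 4 were also chosen with the contrast in view, so the shared direction is no support. Over these settings the log2 fold changes ran from -0.89 to -0.58 for miR-423-5p and from -0.54 to -0.36 for miR-423-3p. They ran from -0.47 to -0.18 for miR-191-5p and from -0.23 to -0.05 for miR-425-5p. miR-423-3p was no longer called with upper quartile scaling, without a low-count filter, with a replicate block, or with the library total as a covariate, and miR-423-5p not with the last of these. With that covariate 0 of the 234 tested entries were called in either direction. Without Ocn 3 the log2 fold change was -0.21 for miR-191-5p, and without Ocn 5 or Ocn 6 it was -0.09 or -0.10 for miR-425-5p.

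Depth and group are partly confounded, and only 2 Prx1 libraries were at least as deep as the shallowest Ocn library, Prx1 8 with 596734 counts and Prx1 9 with 813770. In them miR-423-5p stood at 903.3 and 705.4 CPM and miR-423-3p at 450.8 and 453.4 CPM, above all 6 Ocn libraries. For miR-423-5p this was fixed beforehand, since its groups did not overlap and it was chosen on that contrast. For miR-423-3p only Prx1 4 fell below the highest Ocn library, so these positions are descriptions and no check on depth. miR-191-5p, at 9192 CPM in Prx1 8, was above 3 of the 6 Ocn libraries, and at 13571 CPM in Prx1 9 above all 6. miR-425-5p, at 1517 CPM in Prx1 8 and 1945 CPM in Prx1 9, was above 3 and 5 of them. Within a group, none of the 4 had a relation with log10 of the library total that passed. Pearson's r lay between -0.47 and 0.45 in Ocn (n = 6) and between -0.46 and 0.27 in Prx1 (n = 10). Spearman's rho lay between -0.37 and 0.43 in Ocn and between -0.13 and 0.30 in Prx1 (permutation tests, exact in Ocn, adjusted over 16 relations, smallest adjusted p 0.434 for r and 0.752 for rho). Without the 2 Prx1 libraries farthest from the median total, Prx1 8 and Prx1 9, r for miR-423-5p turned from -0.46 to 0.34, so its sign in Prx1 rests on those libraries. The same step moved r from 0.06 to 0.60 for miR-423-3p, from 0.27 to 0.40 for miR-191-5p and from 0.17 to 0.27 for miR-425-5p. The values without those libraries were not tested.

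The spread about the group means, which does not use the difference between the groups, was measured as the within-group SD of log2(CPM + 1), pooled over the 2 groups. It was 0.23 for miR-423-3p, 0.25 for miR-191-5p, 0.25 for miR-425-5p and 0.33 for miR-423-5p, each with an SE between 0.04 and 0.06. In order from the smallest, these were places 35, 42, 46 and 85 of the 234 tested entries, whose median was 0.38. Many of those entries are far less abundant than the 4. Over the 102 most abundant tested entries, which include the 4, the median was 0.27. miR-423-5p lay above that value and the other 3 a little below it. Counting error accounts for 0.71% of the variance of miR-191-5p, 4.31% of that of miR-425-5p, 5.72% of that of miR-423-5p and 19.1% of that of the least abundant, miR-423-3p. Copies made in amplification, if counted, would add to these shares.

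The spread was uneven between the groups. The SD of log2(CPM + 1) of miR-423-5p was 0.50 in Ocn and 0.16 in Prx1, whereas that of miR-191-5p was 0.12 in Ocn and 0.30 in Prx1. For miR-423-3p it was 0.22 and 0.24, and for miR-425-5p 0.27 and 0.24. A single library set the value of miR-423-5p: without Ocn 3 its pooled SD was 0.20 in place of 0.33. Whether the spread differs between the groups was not tested.

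The 4 could not be ranked by this measure. The mean absolute deviation from the group mean, on the log2 scale, was 0.174 for miR-423-3p, 0.194 for miR-191-5p, 0.195 for miR-425-5p and 0.196 for miR-423-5p. None of the 6 pairs differed by an exact paired permutation test over the 16 libraries (2-sided, smallest unadjusted p = 0.491, adjusted p = 0.988). The largest difference between a pair, 0.023 for miR-423-5p over miR-423-3p, had an SD of 0.304 over libraries, so the test does not show equal spread. With TMM-scaled totals the order changed, and miR-425-5p had the smallest pooled SD, 0.22, against 0.23 for miR-423-3p, 0.24 for miR-191-5p and 0.37 for miR-423-5p.

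A list of 20 other microRNAs used as references in plasma or EV studies is set beside these values. It was drawn up with earlier results of these data known, so it is not an independent measure of spread or of group differences. All 20 were tested, their pooled within-group SD ran from 0.07 to 0.47 with a median of 0.22, and their median log2 fold change was -0.01. Among the 24 together, miR-423-3p took place 12, miR-191-5p place 13, miR-425-5p place 15 and miR-423-5p place 20 from the smallest spread. The smallest spreads belonged to miR-26a-5p (0.07), let-7i-5p (0.13) and miR-93-5p (0.14), and the largest to miR-186-5p (0.47), miR-484 (0.46) and miR-30c-5p (0.39).

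With edgeR, 0 of the 20 passed, where 13.7% of the tested entries were called in either direction, and 1 had an unadjusted p under 0.05. DESeq2 called 1, miR-26a-5p (log2 fold change 0.18, adjusted p = 0.0230), and limma voom 0, with 1 under 0.05 unadjusted in each. miR-26a-5p had the smallest spread of all 234 entries, yet its libraries did not overlap between the groups, with 27824 ± 2057 CPM in Ocn and 23900 ± 775 in Prx1. let-7i-5p had 74035 ± 8671 against 74889 ± 5155 CPM and miR-93-5p 8719 ± 774 against 8454 ± 872 CPM. Their log2 fold changes were -0.04 and 0.01.

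By the size of the log2 fold change, miR-423-5p, miR-423-3p and miR-191-5p had the 3 largest values of the 24, and miR-425-5p was in place 15 from the smallest. The SD over all 16 libraries, which holds the group difference and the spread together, was 0.25 for miR-425-5p, 0.28 for miR-191-5p, 0.33 for miR-423-3p and 0.51 for miR-423-5p. These were places 13, 15, 19 and 24 of the 24. miR-423-5p was chosen on its difference between the groups, so its last place in both orders is no evidence on stability. That contrast was also in view when the other 3 were chosen, so their places are descriptions.

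**Figure D2:**
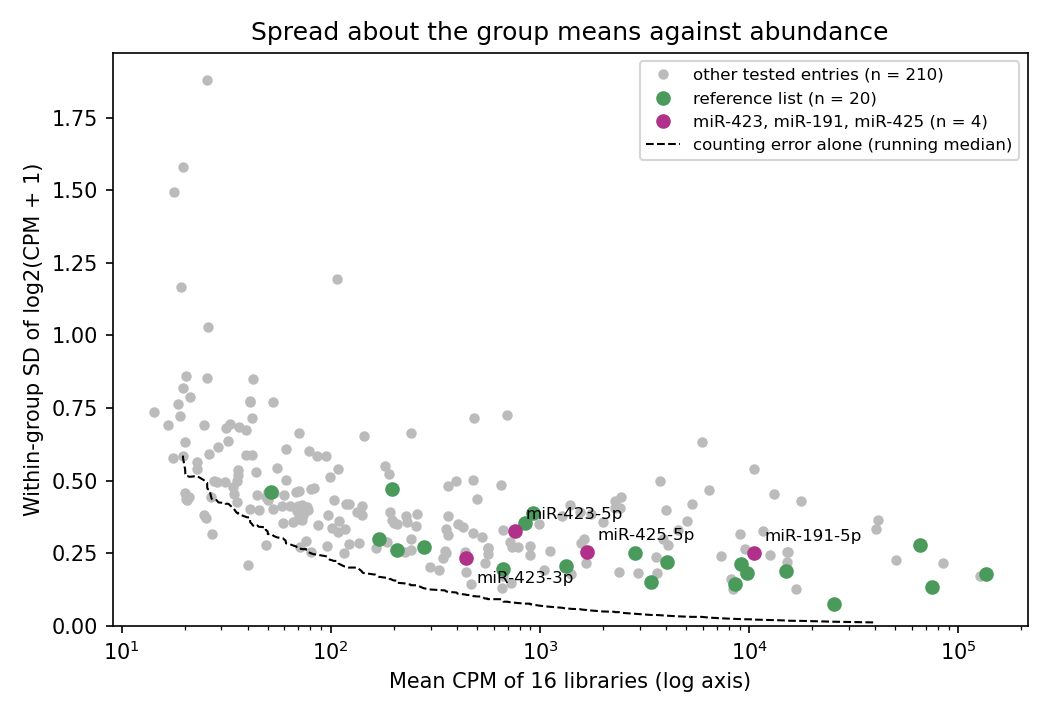
Within-group SD of log2(CPM + 1) (y axis) against mean CPM (x axis, log scale) for the 234 tested entries. The dashed line is the spread that counting error alone would give, and miR-423-5p at 0.33 lies above the other 3, which sit between 0.23 and 0.25. Without Ocn 3, miR-423-5p would be at 0.20, below the other 3.

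The effect of each of the 4 as a reference was seen by setting the size of every library to its count of that microRNA, in place of TMM, and fitting edgeR again to the other entries. Scaled to miR-423-5p, 188 of 233 entries (80.7%) were called higher in Ocn and 1 (0.429%) lower. Scaled to miR-423-3p, 116 (49.8%) were higher and 3 (1.29%) lower. With miR-191-5p these were 51 (21.9%) and 5 (2.15%), and with miR-425-5p 17 (7.3%) and 6 (2.58%). The geometric mean of the 4 as a reference gave 112 higher (48.7%) and 4 lower (1.74%) of 230 tested. These counts follow from the lower level of each reference in Ocn, which lifts the other entries there. As miR-423-5p was chosen on that difference, its counts show the size of the effect and test nothing.

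The median log2 fold change of the entries moved up by 0.91 with miR-423-5p, 0.51 with miR-423-3p, 0.30 with miR-191-5p and 0.19 with miR-425-5p. The median SE rose from 0.18 with TMM to 0.27 with miR-423-5p, and to 0.21 with each of miR-423-3p, miR-191-5p and miR-425-5p. Of 32 entries called with TMM and tested again, 20 were called in the same direction with miR-425-5p and 19 with miR-191-5p. Of 31 such entries, 17 were so with miR-423-3p and 15 with miR-423-5p.

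Leaving out a library moved these counts. With miR-425-5p the 17 entries called higher became 9 without any of Ocn 4, Ocn 5, Prx1 1, Prx1 2 and Prx1 3, 10 without Prx1 9, 11 without Prx1 10 and 32 without Prx1 7. With miR-191-5p the 51 became 21 without Ocn 3, 28 without Ocn 5 and 33 without Prx1 2 or Prx1 9. With miR-423-5p the number higher stayed between 145 and 194, and the 1 lower became 2 without Ocn 3.

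**Figure D3:**
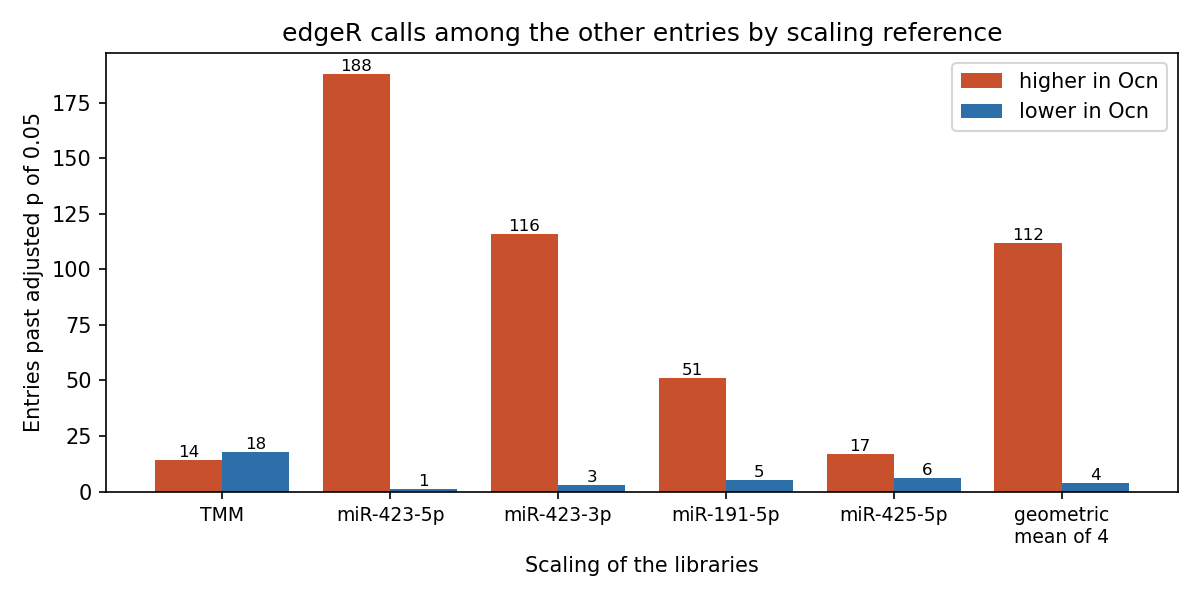
Number of entries past an edgeR adjusted p of 0.05 (y axis, from 0), higher or lower in Ocn, for TMM and for libraries scaled to each microRNA or to the geometric mean of the 4 (x axis). The bars for higher entries fall from 188 with miR-423-5p to 17 with miR-425-5p, against 14 with TMM. Their order follows how much lower each microRNA was in Ocn, the contrast on which miR-423-5p was chosen.

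Ratios between 2 of the 4 need no scaling to the library. The count of miR-423-5p over that of miR-423-3p, the arms of 1 precursor, ran from 0.84 in Ocn 3 to 2.36 in Prx1 7. Its log2 mean was 0.54 ± 0.41 in Ocn and 0.88 ± 0.28 in Prx1, a difference of -0.34 (SE 0.17), and the groups overlapped. Without Ocn 3 that difference was -0.18. The pooled within-group SD of this ratio was 0.34, or 0.25 without Ocn 3. The proportion of the arms thus varied within each group, in Ocn mainly through Ocn 3, as the other Ocn libraries ran from 0.47 to 0.90. The share of counting error in this ratio was not computed.

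miR-191-5p and miR-425-5p, from neighbouring hairpins, kept a closer ratio, with log2 means of 2.56 ± 0.27 in Ocn and 2.68 ± 0.12 in Prx1. The difference was -0.12 (SE 0.10) and -0.02 without Ocn 3, the library with the lowest ratio. The log2 ratio of miR-423-3p to miR-191-5p, from different chromosomes, was -4.71 ± 0.15 in Ocn and -4.50 ± 0.18 in Prx1. Its pooled within-group SD was 0.17, against 0.19 for miR-191-5p with miR-425-5p, but without Ocn 3 these were 0.18 and 0.12. Over all 16 libraries, group difference included, the SD was 0.19 for each of these pairs. The ratio of miR-423-5p to miR-425-5p was -1.61 ± 0.70 in Ocn and -0.94 ± 0.36 in Prx1, with a pooled SD of 0.51, or 0.35 without Ocn 3.

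**Figure D4:**
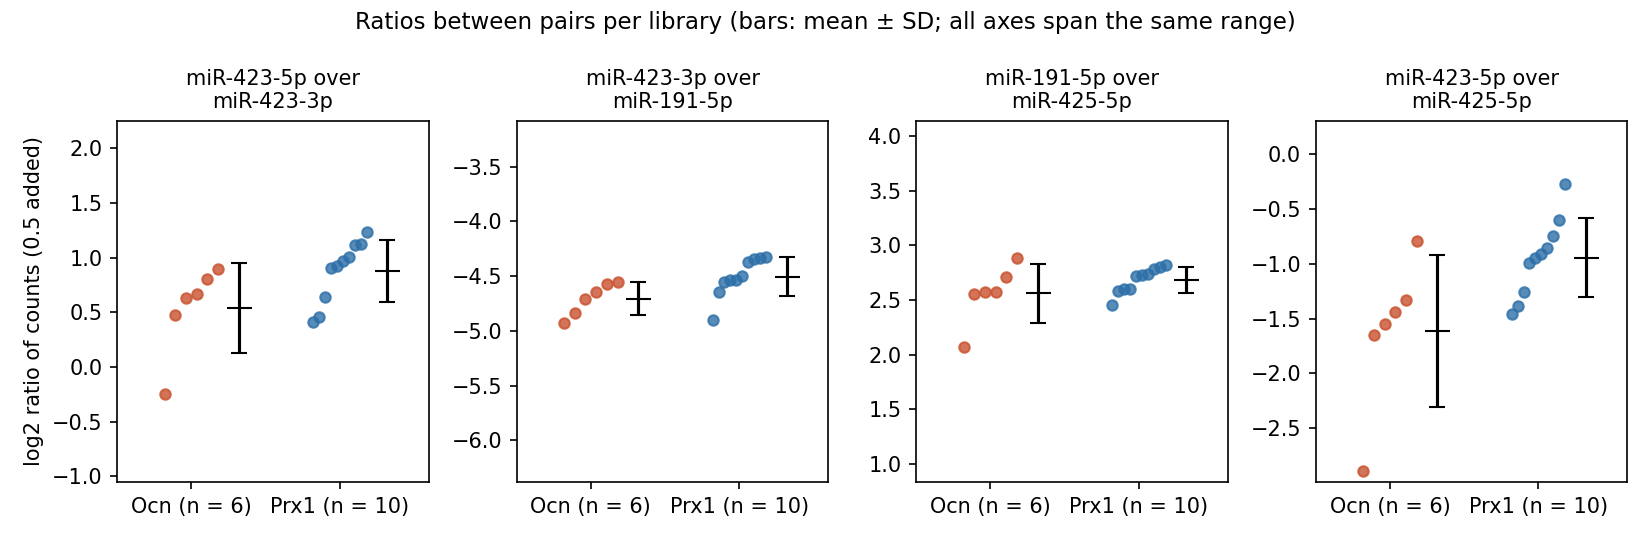
log2 ratio of counts between pairs of the microRNAs (y axes, all of the same span) per library in Ocn (n = 6) and Prx1 (n = 10), with mean ± SD. Ocn 3 is the lowest point in the panels of miR-423-5p over miR-423-3p, miR-191-5p over miR-425-5p and miR-423-5p over miR-425-5p.

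The other arms of the chromosome 9 hairpins were low. miR-191-3p had 13 to 58 counts per library in Ocn and 3 to 21 in Prx1, and miR-425-3p 15 to 61 and 5 to 33. The 5p count exceeded the 3p count by 162-fold to 725-fold for miR-191 and by 27.8-fold to 108-fold for miR-425. The log2 ratio of the arms was 8.08 ± 0.51 in Ocn and 8.59 ± 0.77 in Prx1 for miR-191, and 5.68 ± 0.39 and 5.52 ± 0.56 for miR-425. The difference of Ocn from Prx1 was -0.51 (SE 0.35) for miR-191 and 0.16 (SE 0.26) for miR-425. The low 3p counts limit both values, and no test of these ratios was made.

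After each group's mean was subtracted, levels of the 4 did not all vary together over the 16 libraries. Spearman's rho was 0.73 between miR-191-5p and miR-425-5p, 0.71 between miR-423-3p and miR-191-5p and 0.48 between the arms of miR-423. miR-423-5p had a rho of -0.05 with miR-191-5p and of -0.42 with miR-425-5p. These are descriptions, as all values of a library share its total.

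By the same measure, the 2 tested entries most like miR-423-5p were miR-674-5p (rho 0.71) and miR-155-5p (0.70), the latter an immune-cell microRNA. Those most like miR-423-3p were miR-30c-5p (0.72) and miR-191-5p itself. Closest to miR-191-5p were miR-15b-5p (0.82) and miR-30d-5p (0.78), and closest to miR-425-5p were miR-30d-5p (0.93) and the erythroid miR-144-5p (0.86).

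Erythrocyte RNA in plasma is often gauged by the ratio of miR-451a, which red cells hold in large amounts, to miR-23a-3p, which is little affected by hemolysis. Its log2 value was 0.37 ± 0.55 in Ocn, from -0.21 to 1.35, and 0.44 ± 0.45 in Prx1, from -0.32 to 0.97. The difference of -0.07 was within the spread (exact permutation test over libraries, 2-sided, p = 0.791). The parts of the ratio each had a higher mean in Ocn, with 2552 against 2119 CPM for miR-451a (log2 fold change 0.22) and 1925 against 1510 CPM for miR-23a-3p (0.32, edgeR adjusted p = 0.0917). Ocn 3, with the lowest miR-423-5p and the highest miR-425-5p of its group, had the highest ratio of all libraries. It was also the shallowest Ocn library, with 582660 counts, and had the highest miR-142a-3p of its group, 77658 CPM. Why Ocn 3 stood apart was not tested.

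Within Prx1 (n = 10), miR-425-5p had the strongest relation with this ratio (r = 0.83, permutation p = 0.00326, adjusted p = 0.0522; rho = 0.79, p = 0.00892, adjusted p = 0.0798), short of the threshold after adjustment over 16 relations. For miR-191-5p r was 0.79 (permutation p = 0.00876, adjusted p = 0.0701; rho = 0.73, p = 0.0199, adjusted p = 0.0798). For miR-423-5p r was negative at -0.68 (permutation p = 0.0218, adjusted p = 0.0889; rho = -0.76, p = 0.0148, adjusted p = 0.0798). miR-423-3p had r = 0.53 (permutation p = 0.120, adjusted p = 0.384) and rho = 0.32 (p = 0.370, adjusted p = 0.752). Without Prx1 6 and Prx1 7, the libraries farthest from the median ratio, r was 0.70 for miR-425-5p, 0.73 for miR-191-5p, -0.53 for miR-423-5p and 0.56 for miR-423-3p. These values of r were not tested.

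Within Ocn (n = 6), miR-425-5p had r = 0.88 (exact permutation p = 0.0222, adjusted p = 0.0889) and rho = 0.94 (exact p = 0.0167, adjusted p = 0.0798), and r = 0.95 without Ocn 3 and Ocn 6. miR-423-5p had r = -0.66 (exact permutation p = 0.164, adjusted p = 0.434) and rho = -0.37 (exact p = 0.497, adjusted p = 0.752). Without those libraries its r was 0.11, so the relation rests on them. For miR-191-5p r was 0.01 and rho 0.43, and for miR-423-3p 0.20 and 0.31 (exact permutation tests, adjusted p of r 0.990 and 0.849, of rho 0.752 for each). Without Ocn 3 and Ocn 6 these r were 0.94 and 0.71.

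**Figure D5:**
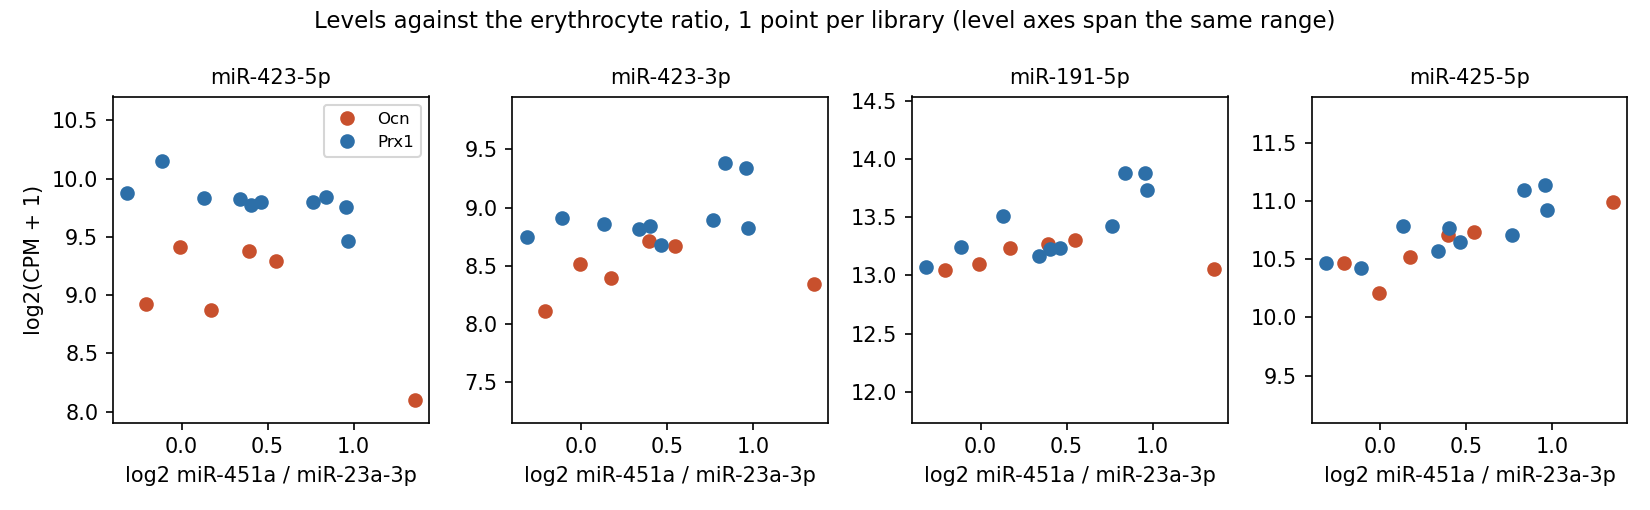
log2(CPM + 1) of each microRNA (y axes, all of the same span) against the log2 ratio of miR-451a to miR-23a-3p (x axis), 1 point per library, Ocn in orange and Prx1 in blue. For miR-425-5p r is 0.88 in Ocn and 0.83 in Prx1, neither past the threshold after adjustment, while miR-423-5p is lowest in Ocn 3, at the right end.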

How the data were processed

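MicroRNA libraries of 16 mice (6 Ocn, 10 Prx1, grouped by title) were compared. The deposited table holds counts that the authors did not normalize, judged from its whole-number values, with 1 row for each mature microRNA. Per the labels' protocols, libraries were made from 1 ng of RNA with the QIAseq miRNA kit. Per the submitters' processing notes, cutadapt 1.18 and mm10 were used. The sources used here give neither the aligner nor the counting tool, nor whether reads or molecules were counted, so amplification copies may be among the counts.

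CPM used column totals. The whole table was tested with edgeR 4.0.16 (quasi-likelihood F test, TMM, filterByExpr, robust fit, Benjamini-Hochberg over 234 entries, threshold 0.05), after a trial on simulated counts. The SE was the size of the log2 fold change over the square root of F. DESeq2 1.42.0, limma 3.58.1, other scalings, filters, thinning to 225273 counts, a depth covariate, a replicate block and each library left out were alternatives. Sex is not given per library. Permutation tests used scipy 1.17.1, all 65536 sign flips for pairs, and 100000 resamples for correlations over 10 libraries. Spread used a pseudocount of 1 CPM, ratios 0.5 counts. Beside the 4, the text names the other arms, the 3 reference-list entries with the smallest and the largest spread, the 2 entries most like each, and miR-451a and miR-23a-3p. Members of the cell type lists are named too. The members and all lists were chosen with earlier results of these data known. No library repeated another of its group within sampling noise (60 pairs, smallest chi-square over degrees of freedom 5.98).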

Additional observations from a re-analysis of the deposited data

Results flagged for a closer look

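In the log2 ratio of miR-423-5p to miR-423-3p, Ocn 3 had a value of -0.25, apart from the other 5 Ocn libraries, which ran from 0.47 to 0.90. Its gap to the nearest library was large against the range of the group by Dixon's test at the 95% level. In all, 20 sets of values of a group were examined, the 4 levels and 6 ratios in each group, and chance marks about 1 in 20.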

How the results depend on the processing

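Of 534 recomputed values, 502 kept their direction and their side of the threshold or stayed within the limits set for a count or a spread, and 0 reversed. The calls over all entries, 14 higher and 18 lower in Ocn, became 26 and 11 with upper quartile scaling, 24 higher with limma voom, and 0 and 0 with the library total (log10) as covariate in edgeR, where 40 entries had an unadjusted p under 0.05. With libraries left out they ran from 8 to 20 higher (9 without Prx1 1 or Prx1 3, 8 without Prx1 2) and from 13 to 20 lower. The call of miR-423-5p was lost with the depth covariate (-0.77, SE 0.27), and that of miR-423-3p with it (-0.53, SE 0.21), with upper quartile scaling (-0.36), without a low-count filter (-0.43) and with a replicate block on the 12 libraries that share numbers (-0.52). miR-191-5p passed with DESeq2 (-0.32) and, with libraries left out, ran from -0.36 to -0.21, passing without Prx1 6. The cause of these changes was not tested. Shared numbers were not taken to pair the samples. The correlation of deviations ran from 0.01 to 0.22 and exceeded 0.1 in 2 of 6 pairs, and 1 of 6 Ocn libraries correlated best with its own number. No test was made of these correlations, so they cannot exclude a pairing. The block gave 13 higher and 14 lower calls.

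With libraries left out, the counts of entries higher ran from 145 to 194 scaled to miR-423-5p, 92 to 129 scaled to miR-423-3p, 21 to 66 scaled to miR-191-5p and 9 to 32 scaled to miR-425-5p, and the 1 lower with miR-423-5p from 1 to 2. Without a low-count filter, 3 entries were lower with miR-423-5p and 3 with miR-191-5p. The pooled SD of miR-423-5p was 0.39 with the 5 most abundant entries removed from the total, and ran from 0.20 (without Ocn 3) to 0.34 with libraries left out. With 92 counts of miR-423-3p in the shallowest library, depth limits that microRNA most.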
